A study of Mus musculus with 47 samples.

Results

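Adenomas of B6xPWD Min mice were compared with uninvolved intestinal mucosa of Min mice of the same cross (Min mucosa). The comparison rests on 6 of the 47 libraries, 3 of adenoma and 3 of Min mucosa, chosen by sample name alone. All 6 came from C57BL/6xPWD F1 mice, the first-generation cross of the laboratory strain C57BL/6 (B6) with PWD, aged 15 to 19 weeks, and all carried the Min allele of Apc. Mucosa of wild-type mice of the same cross (3 libraries) served as a second reference. Adenoma and Min mucosa of B6, C5F1 and C5 (18 libraries) were used to ask whether the adenoma effect of this cross differed from that of the other backgrounds. C5F1 and C5 are background names taken from the sample titles. These mice and the wild-type mice were also aged 15 to 19 weeks. Ribosome-depleted total RNA was sequenced as single reads, and values are CPM, each gene's share of the counts of its library after TMM scaling. The labels do not say whether replicates were separate animals, nor which stretch of intestine or sex each came from. A p-value therefore speaks only of the spread among libraries, which may be technical. In the main test that spread was estimated from 39 tissue libraries, not from the 6 alone. Every B6xPWD library held the Y-linked Ddx3y (10.1 to 17.8 CPM), with the X-inactivation transcript Xist at most 1.17 CPM, as in males.

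Apc is a scaffold of the complex that marks beta-catenin for destruction. The Min allele encodes a truncated protein, and adenomas of Min mice arise from cells that have lost the normal allele, so that beta-catenin accumulates and, with TCF and LEF proteins, switches on Wnt target genes of the crypt base, among them inhibitors that feed back on the pathway. Villus cells are mostly enterocytes with digestive enzymes and transporters on a brush border, mixed with goblet and enteroendocrine cells, and Paneth cells sit at the crypt base. In bulk tissue, fewer cells of a type and less RNA per cell cannot be told apart.

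Counts assigned to genes ranged from 4544785 to 6578504 over the 6 libraries, and the ribosomal precursor Rn45s took 41.0 to 54.0% of them in adenoma and 30.3 to 45.2% in Min mucosa. Krt19, a keratin of simple epithelia, read 1354, 2892 and 3119 CPM in adenoma and 1876, 1935 and 2074 CPM in Min mucosa, each time for replicates 1, 2 and 3 in that order, as in every series of values that follows. Apc read 169.5, 157 and 121 CPM in adenoma and 177, 156 and 145 CPM in Min mucosa and did not pass the test (-0.09 ± 0.18, adjusted p = 0.79), and counts per gene do not separate the Min from the normal allele.

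Adenoma replicate 1 stood apart from the other adenomas. Across genes, which are not independent, adenoma replicate 1 correlated at r = 0.933 with Min mucosa replicate 1 and at 0.902 and 0.890 with adenoma replicates 2 and 3. Those 2 adenomas correlated at 0.956 with each other. Min mucosa replicate 1 correlated at 0.962 and 0.963 with Min mucosa replicates 2 and 3, close to the 0.970 between them. Ms4a1, which encodes the B cell protein CD20, read 90.3, 0.193 and 0 CPM in adenoma and 0.860, 0 and 0.468 CPM in Min mucosa, so that adenoma replicate 1 alone was high. Gata4, which marks duodenum and jejunum, read 1.37, 32.7 and 22.4 CPM in adenoma and 0.614, 30.3 and 43.5 CPM in Min mucosa, low in both replicate 1 libraries. Same-numbered libraries deviated from their group means together, with correlations across genes of 0.373, 0.244 and 0.205 for numbers 1, 2 and 3, and were therefore also treated as pairs. Adenoma replicate 2 and Min mucosa replicate 3, of unlike number, correlated at 0.147.

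The test called 2241 of 13657 genes (16.4%) at an adjusted p under 0.05, 1288 higher in adenoma (9.43%) and 953 lower (6.98%). By over 2-fold, 893 rose and 395 fell. The median log2 change of all genes tested was 0.03. With the replicate number as a block the count was 1328 (640 higher, 688 lower) in the 6 libraries alone. Leaving out adenoma replicate 3 gave 1335, and leaving out Min mucosa replicate 3 gave 1374. Among the 13657 genes, the adenoma and Min mucosa libraries did not overlap in 1777 that were higher in adenoma and 2020 that were lower. Absence of overlap was therefore common, and where it is given for a gene below it is a description.

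Several of the genes that rose most had few or no counts in Min mucosa. Slc38a4, an amino acid transporter (chr15:96994816-97055956, mm10), read 12.5, 91.6 and 145 CPM in adenoma and 0.368, 0.178 and 0.702 CPM in Min mucosa, a log2 change of 6.89 ± 0.64 (adjusted p = 8.0e-09). Stra6, the cell-surface receptor for retinol-binding protein, read 19.9, 26.7 and 57.9 CPM against 0.123, 0 and 0.234 CPM, a ratio of pooled counts of 289 (95% counting interval 79.4 to 2389). Ctse, the gastric protease cathepsin E, read 15.9, 35.2 and 68.5 CPM against 0.368, 0.178 and 0 CPM (6.24 ± 0.54, adjusted p = 2.9e-09). In each of the 3 genes adenoma replicate 1 was the lowest adenoma. The largest rises and falls were picked only among genes whose adenoma and Min mucosa libraries did not overlap. Their separation was therefore set by the choice and is no result. Genes with few or no counts in Min mucosa, these 3 among them, could pass the filter on low counts only through other groups. Their rises are therefore descriptions, whatever the p-value. The counting intervals cover counting error only.

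S100g, the calcium-binding protein calbindin-D9k, read 44.2, 137 and 77.97 CPM against 1.35, 1.25 and 0.468 CPM (5.96 ± 0.98, adjusted p = 7.9e-05). Ly6d, a small surface protein, read 49.2, 92.2 and 139 CPM against 1.11, 2.32 and 1.40 CPM (5.63 ± 0.57, adjusted p = 4.6e-08). Wfdc18, a secreted protein with a whey acidic protein domain, had no count in Min mucosa and read 1.89, 13.3 and 30.6 CPM in adenoma, at least 79.5-fold higher than 3 counts over the group allow. Notum, Bpifb1 and Clu were also among the 10 largest rises and are described with their lists.

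**Figure D1:**
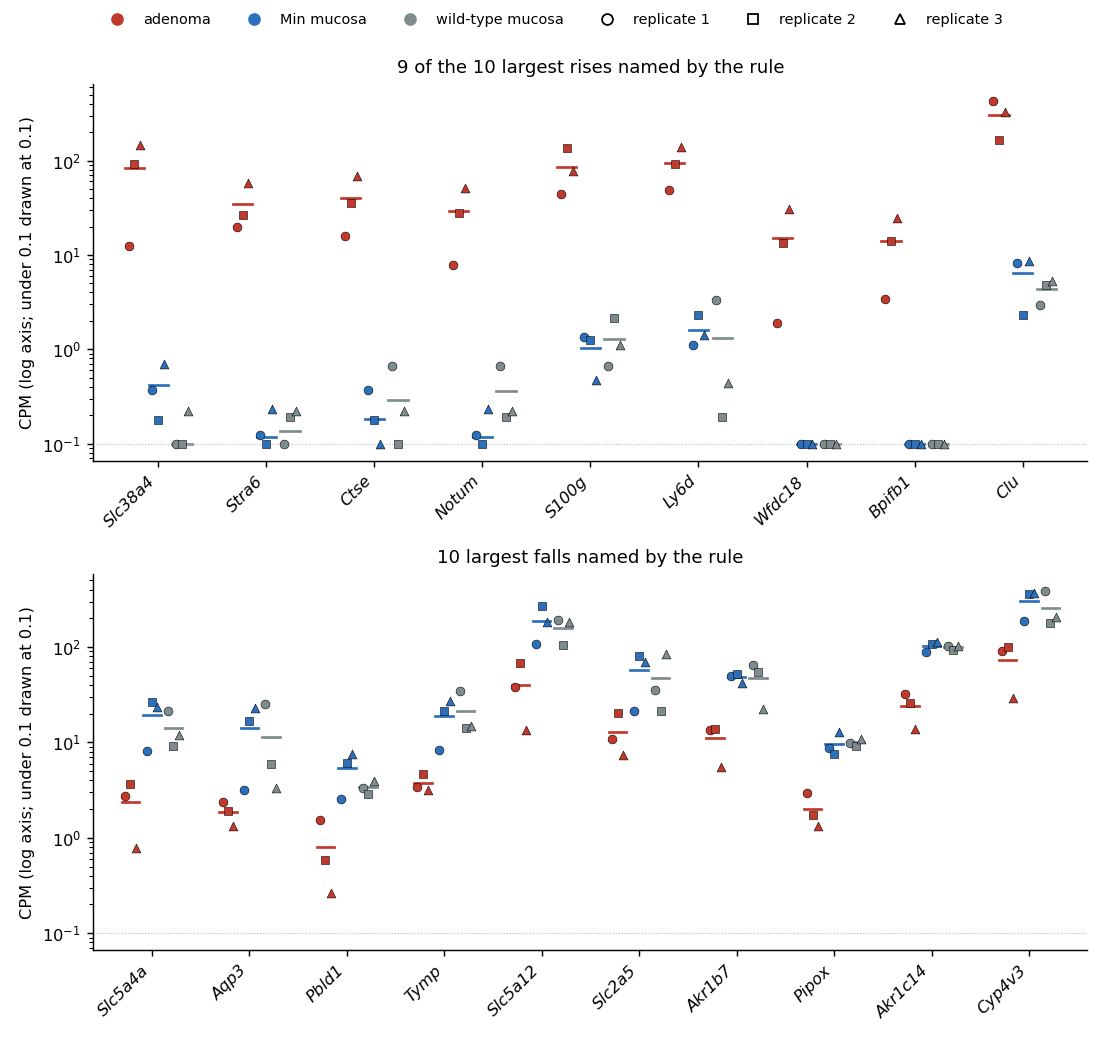
CPM on a log axis of 9 of the 10 largest rises (upper panel) and 10 largest falls (lower panel) in adenoma, Min mucosa and wild-type mucosa; each point is a library, its shape the replicate, the short line the group mean, and values under 0.1 CPM are drawn at 0.1. Slc38a4 lies at 12.5 to 145 CPM in adenoma and at most 0.702 CPM in mucosa, while the falls span smaller factors.

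The 3 lists of Wnt target genes held 39 genes, of which 35 were tested, 23 rose and 0 fell. The rises include genes with too few counts in Min mucosa to pass the filter on low counts there, among them Notum, Wif1, Lef1 and T. These passed through other groups, so their part in the count is a description, whatever the p-value. Without adenoma replicate 3 the rises numbered 4 among feedback inhibitors, 7 among transcription factors and 4 among the other targets. Of 12 feedback inhibitors tested 7 rose, with a median log2 change of 0.90. Notum, a secreted enzyme that removes the lipid of Wnt ligands (chr11:120653788-120661193), read 7.89, 28.02 and 51.1 CPM in adenoma and 0.123, 0 and 0.234 CPM in Min mucosa, a ratio of 234 (95% counting interval 64.4 to 1942) with an adjusted p of 3.4e-08. Nkd1, which binds Dishevelled, read 12.9, 28.8 and 46.4 CPM against 4.54, 1.96 and 2.57 CPM (3.09 ± 0.38, adjusted p = 1.2e-06). Wif1, a secreted protein that binds Wnt ligands, read 4.46, 20.9 and 41.1 CPM against 0, 1.07 and 0.234 CPM (4.96 ± 0.66, adjusted p = 3.9e-06). In these 3 genes the groups did not overlap, which for Notum was set by its choice among the largest rises. Adenoma replicate 1 was the lowest adenoma in each.

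Rnf43, a ubiquitin ligase that removes Frizzled receptors, read 22.8, 44.8 and 62.95 CPM in adenoma and 20.3, 17.5 and 22.9 CPM in Min mucosa (1.09 ± 0.27, adjusted p = 0.0046), with replicate 1 of the adenomas inside the mucosa range. Its call was lost with the block in the 6 libraries (1.0044, adjusted p = 0.053) and without adenoma replicate 3 (0.71, adjusted p = 0.089). Axin2, the scaffold widely used as a reporter of Wnt activity, read 57.6, 69.96 and 79.5 CPM against 49.6, 55.5 and 48.9 CPM. The groups did not overlap, but Axin2 did not pass the test (0.42 ± 0.27, adjusted p = 0.30), and wild-type mucosa read 52.1, 71.2 and 49.4 CPM. Inhibitors called higher numbered 4 with the block in the 6 libraries, and 2 were called lower with the block in the 24 libraries of adenoma and Min mucosa.

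Of 12 Wnt-driven transcription factors 10 rose, with a median log2 change of 1.77. Prox1, a homeobox factor, read 14.1, 40.2 and 58.5 CPM in adenoma and 5.28, 4.64 and 3.28 CPM in Min mucosa (2.97 ± 0.32, adjusted p = 1.5e-07). Sox4, an HMG-box factor of progenitor cells, read 36.2, 86.4 and 129 CPM against 26.03, 26.2 and 27.4 CPM (1.64 ± 0.35, adjusted p = 0.0013). The T gene (Brachyury) had no count in Min mucosa and read 0.857, 3.09 and 7.38 CPM in adenoma, at least 19.9-fold higher. T could pass the filter on low counts only through other groups, so its rise is a description. All 3 genes were lowest in adenoma replicate 1, without overlap with Min mucosa.

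The genes of 2 DNA-binding partners of beta-catenin rose as well. Tcf7 read 37.4, 18.7 and 22.4 CPM against 4.79, 4.46 and 5.15 CPM (2.38 ± 0.23, adjusted p = 2.6e-08). Lef1 read 11.1, 2.32 and 6.85 CPM against 0.246, 0.357 and 0.702 CPM (3.32 ± 0.44, adjusted p = 3.4e-06). Both were highest in adenoma replicate 1 and are also genes of T cells, whose summed markers read 108, 24.4 and 27.7 CPM in adenoma and 44.1, 35.1 and 40.7 CPM in Min mucosa; their part in the result was not tested. The list had 10 genes called higher without adenoma replicate 1, and 7 without Min mucosa replicate 1. Cdx2, a factor of intestinal identity, read 64.97, 66.7 and 67.2 CPM against 81.8, 99.9 and 105 CPM and was not called (-0.53 ± 0.20, adjusted p = 0.073) except with the block in the 24 libraries (-0.52, adjusted p = 0.0099).

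Of 11 other Wnt target genes tested 6 rose, with a median of 1.02. Cd44, a hyaluronan receptor, read 108, 138 and 137 CPM in adenoma and 56.7, 30.9 and 26.7 CPM in Min mucosa (1.73 ± 0.23, adjusted p = 5.3e-06). Tnfrsf19, a TNF receptor family member of crypt base cells, read 12.9, 30.5 and 51.1 CPM against 6.999, 5.53 and 6.32 CPM (2.25 ± 0.31, adjusted p = 5.5e-06). Neither overlapped with Min mucosa. Slc12a2, a chloride transporter, read 168, 201 and 182 CPM against 301, 215 and 231 CPM and was not called (-0.44 ± 0.17, adjusted p = 0.075) except by DESeq2 (-0.43, adjusted p = 0.045). With Min mucosa replicate 3 left out, or with the block in the 6 libraries, 4 of these genes rose. Over the 3 lists adenoma replicate 1 was the lowest adenoma in 20 of the 23 genes that rose.

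**Figure D2:**
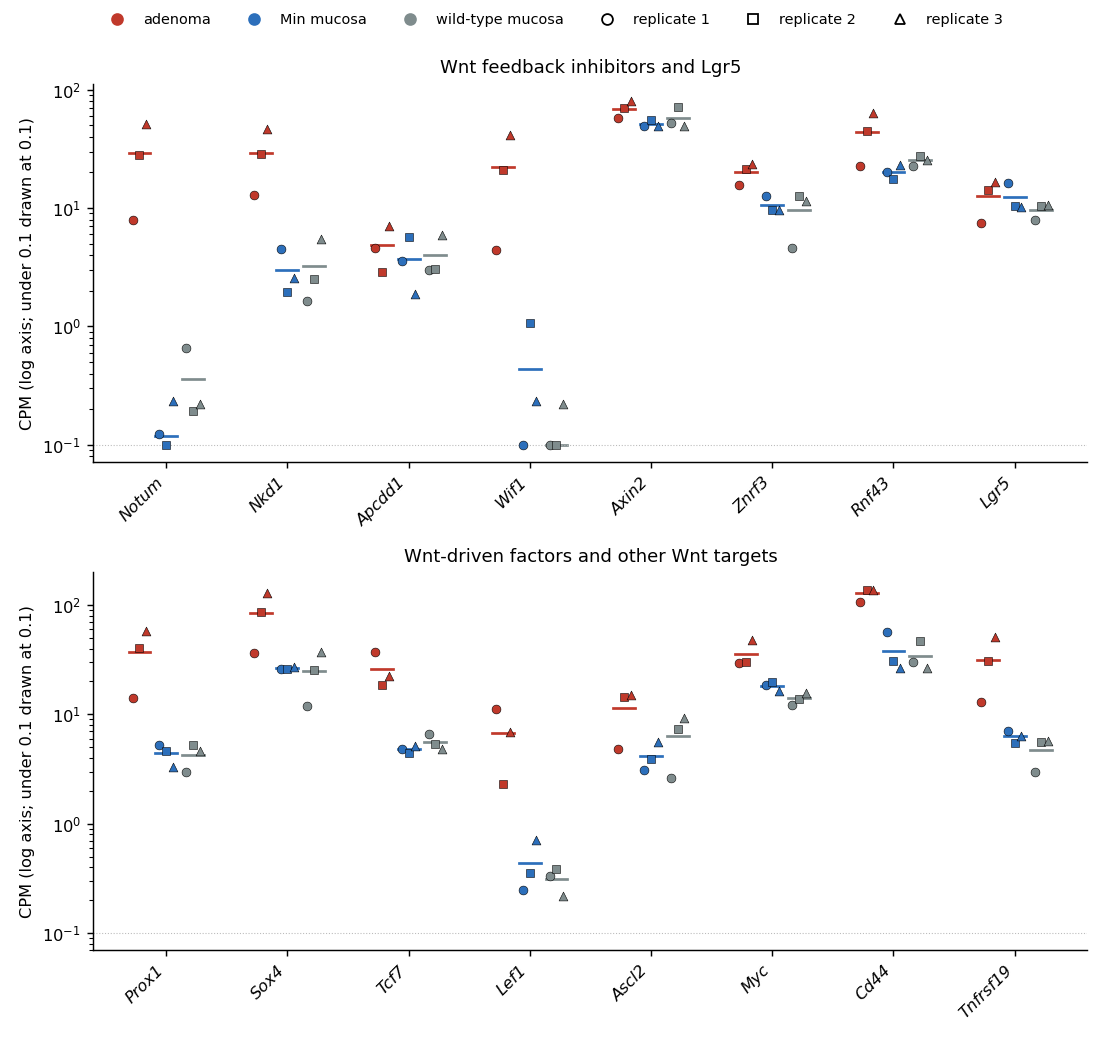
CPM on a log axis of Wnt feedback inhibitors with Lgr5 (upper panel) and of other Wnt target genes (lower panel) in each adenoma, Min mucosa and wild-type library; shapes mark replicates, short lines group means, and values under 0.1 CPM are drawn at 0.1. Notum at 7.89 to 51.1 CPM in adenoma is separate from mucosa, while Axin2 and Lgr5 lie close together in all groups.

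Promoter windows of the Wnt target lists, from 250 bases before to 50 after the gene start in RefSeq (build GRCm38.p6), were searched on both strands for the TCF/LEF core CTTTGAT (reverse complement ATCAAAG). Of 25 genes with a window 3 held it, against 4.29% of 27025 genes and 3.73% of 32851 windows in all. Sp5 and Tnfrsf19, the ones that also rose, are shown so that the motif can be seen in place, with the match in capitals. It lies 104 bases before the start of Sp5, a zinc-finger factor (window chr2:70474673-70474972, forward strand), and, as ATCAAAG, 202 bases before that of Tnfrsf19 (chr14:61037938-61038237, reverse strand). Both are written 5′ to 3′ along the gene.
Sp5: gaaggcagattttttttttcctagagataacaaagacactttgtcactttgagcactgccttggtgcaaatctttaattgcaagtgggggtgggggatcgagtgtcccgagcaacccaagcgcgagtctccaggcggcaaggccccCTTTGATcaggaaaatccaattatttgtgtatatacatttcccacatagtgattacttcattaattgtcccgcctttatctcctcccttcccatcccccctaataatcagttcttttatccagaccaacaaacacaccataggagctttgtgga
Tnfrsf19: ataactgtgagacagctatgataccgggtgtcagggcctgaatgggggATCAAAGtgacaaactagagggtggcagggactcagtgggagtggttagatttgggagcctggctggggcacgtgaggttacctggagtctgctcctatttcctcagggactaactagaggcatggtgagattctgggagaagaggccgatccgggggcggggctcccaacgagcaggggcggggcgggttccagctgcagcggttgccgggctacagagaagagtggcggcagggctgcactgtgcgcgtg
Sp5 read 1.71, 7.15 and 16.3 CPM in adenoma and 0.860, 2.14 and 3.28 CPM in Min mucosa (1.89 ± 0.53, adjusted p = 0.013), with adenoma replicate 1 inside the mucosa range, a call lost on leaving out adenoma replicate 3 (1.03, adjusted p = 0.23) or Min mucosa replicate 1 (1.4960, adjusted p = 0.085). The gene Mmp7, which also held the motif, was not called (0.34 ± 0.34, adjusted p = 0.54).

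None of the 10 genes of the destruction complex and beta-catenin was called (median -0.08). Ctnnb1, which encodes beta-catenin, read 299.6, 296 and 223 CPM against 249, 239 and 219.5 CPM (0.21 ± 0.33, adjusted p = 0.72).

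Of 14 intestinal stem cell genes 6 rose, Tnfrsf19, Rnf43 and Sox9 among them, and 1 fell (median 0.32). Lgr5, the R-spondin receptor of crypt base stem cells (chr10:115450314-115587780), read 7.54, 14.1 and 16.6 CPM in adenoma and 16.2, 10.3 and 10.3 CPM in Min mucosa, overlapping (0.02 ± 0.26, adjusted p = 0.98). Olfm4, a secreted glycoprotein of the same cells, read 298, 315 and 325 CPM against 518, 491 and 739 CPM (-0.90 ± 0.24, adjusted p = 0.011), lower in every adenoma. That call was lost without Min mucosa replicate 3 (-0.69, adjusted p = 0.089), and against wild-type mucosa, at 582, 456 and 342 CPM, Olfm4 was not called (-0.56, adjusted p = 0.11). Lrig1, a brake on EGF receptors, read 44.2, 55.7 and 61.9 CPM against 52.1, 53.5 and 49.9 CPM (0.05 ± 0.14, adjusted p = 0.84).

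Of 22 cell cycle genes 8 rose and 0 fell (median 0.57). Mcm5, a subunit of the replicative helicase, read 45.8, 68.2 and 70.6 CPM in adenoma and 32.8, 39.9 and 36.7 CPM in Min mucosa (0.75 ± 0.17, adjusted p = 0.0031, or 0.075 with the 6 libraries fitted alone), and Rrm2, which makes deoxynucleotides, read 10.97, 16.04 and 18.7 CPM against 6.88, 6.95 and 6.79 CPM (1.10 ± 0.23, adjusted p = 0.0011), both without overlap. Mki67, the usual marker of cycling cells, read 242, 220.1 and 191 CPM against 199, 161 and 157 CPM and was not called (0.34 ± 0.25, adjusted p = 0.39). The count was 5 with the block in the 6 libraries and 5 when adenoma replicate 3 or Min mucosa replicate 1 or 2 was left out.

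Of 16 ribosome biogenesis genes 7 rose (median 0.58). Polr1b, a subunit of RNA polymerase I, read 13.5, 14.7 and 15.8 CPM in adenoma and 6.999, 7.49 and 6.55 CPM in Min mucosa (1.03 ± 0.28, adjusted p = 0.011), without overlap. Ncl, nucleolin, read 95.7, 92.6 and 39.5 CPM against 54.3, 54.7 and 33.5 CPM and was not called (0.67 ± 0.46, adjusted p = 0.34). The count was 2 with the block in the 6 libraries, 3 without Min mucosa replicate 3, 4 without adenoma replicate 2 or 3 and 11 without adenoma replicate 1.

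Of 11 EGF ligands and receptors 5 rose and 1 fell. Btc, the ligand betacellulin, read 5.14, 22.6 and 15.01 CPM in adenoma and 3.32, 3.74 and 3.74 CPM in Min mucosa (1.90 ± 0.30, adjusted p = 4.3e-05, or 0.057 with the 6 libraries fitted alone), and no adenoma overlapped with mucosa. The receptor gene Erbb3 read 257, 324 and 172 CPM against 391, 591 and 475 CPM (-0.95 ± 0.26, adjusted p = 0.011), a call lost on leaving out adenoma replicate 3 (-0.77, adjusted p = 0.083) or Min mucosa replicate 2 (-0.78, adjusted p = 0.069). Erbb2 read 78.5, 90.4 and 66.1 CPM against 88.8, 128 and 124 CPM and was not called (-0.53 ± 0.20, adjusted p = 0.071) except with the block in the 24 libraries (-0.52, adjusted p = 0.048) or without Min mucosa replicate 1 (-0.68, adjusted p = 0.035). The rises numbered 2 with the block in the 6 libraries, 2 without adenoma replicate 3 or Min mucosa replicate 3 and 3 without Min mucosa replicate 2.

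In the Notch pathway, through which crypt cells choose between absorptive and secretory fates, 3 of 12 genes rose and 1 fell. The receptor gene Notch2 read 79.02, 35.6 and 41.1 CPM in adenoma and 30.5, 23 and 20.8 CPM in Min mucosa (1.06 ± 0.22, adjusted p = 0.0013, or 0.090 with the 6 libraries fitted alone) and did not overlap. The ligand gene Dll1 read 13.4, 10.2 and 7.38 CPM against 20.02, 21.04 and 18.02 CPM (-0.90 ± 0.29, adjusted p = 0.029), lower in every adenoma, a call lost on leaving out any of the 6 libraries but adenoma replicate 1, with adjusted p from 0.051 to 0.14. With the block in the 6 libraries and without adenoma replicate 3, 1 gene rose. None of 11 BMP pathway genes was called (median 0.04), and with the block in the 24 libraries 1 was lower.

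Genes of the fetal and regenerating epithelium rose in 11 of 14 with 0 lower (median 2.46). Clu, the secreted chaperone clusterin (chr14:65968483-65981548), read 424, 165 and 328 CPM in adenoma and 8.23, 2.32 and 8.66 CPM in Min mucosa (5.51 ± 0.66, adjusted p = 8.8e-07). Krt7, a keratin of simple epithelia, read 107, 457 and 451 CPM against 62.1, 66.7 and 70.7 CPM (2.34 ± 0.39, adjusted p = 9.8e-05). In both the adenomas lay above the mucosa, which for Clu was set by its choice among the largest rises. Clu was highest and Krt7 lowest in adenoma replicate 1. Ccnd2, a cyclin, read 229.9, 286 and 212 CPM against 335, 273 and 246 CPM and was not called (-0.23 ± 0.20, adjusted p = 0.48).

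Of 14 gastric-type genes 8 passed the filter on low counts and 7 of these were called higher; they passed through their level in adenomas, so the count is a description. Their fitted median was 4.57, or 4.98 with the 6 genes without Min mucosa counts at their bounds, 2.30 with no filter on low counts and 7.55 by DESeq2. Bpifb1, a secreted protein of mucosal surfaces, read 3.43, 14.1 and 24.5 CPM in adenoma and 0 in Min mucosa, at least 75.5-fold higher. Gkn3, a gastrokine, read 1.37, 7.54 and 31.3 CPM against 0, at least 67.4-fold higher. Aqp5, a water channel, had counts in adenoma replicate 3 alone among the 6 libraries and was not called (0.55 ± 0.35, adjusted p = 0.31). The list summed to 11.3, 62.04 and 119.8 CPM in adenoma and 0.246, 0.178 and 0.468 CPM in Min mucosa, so every adenoma was above the mucosa and replicate 1 was the lowest of them.

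Of 14 matrix protease and plasminogen activation genes 10 rose with 0 lower (median 2.35). Plaur, the urokinase receptor, read 14.9, 42.9 and 48.99 CPM in adenoma and 2.82, 2.67 and 2.34 CPM in Min mucosa (3.60 ± 0.40, adjusted p = 2.6e-07). Mmp14, a membrane-bound collagenase, read 41.1, 55.5 and 117 CPM against 14, 13.6 and 11.7 CPM (2.41 ± 0.30, adjusted p = 1.5e-06). Neither overlapped. Tnc, a matrix glycoprotein, read 40.6, 40.4 and 73.8 CPM against 51.1, 55.8 and 24.1 CPM and was not called (0.23 ± 0.32, adjusted p = 0.69).

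Of 15 inflammation genes 7 rose (median 1.77), and 4 did without adenoma replicate 3. The list held 2 genes without Min mucosa counts, which could pass the filter on low counts only through other groups. With these at their bounds the median was 1.77, and by DESeq2 it was 3.53. Ptgs2, the inducible cyclooxygenase COX-2, read 7.03, 23.8 and 24.2 CPM in adenoma and 3.68, 3.57 and 1.64 CPM in Min mucosa (2.45 ± 0.45, adjusted p = 0.00031), without overlap. Cxcl5, a neutrophil chemoattractant, read 3.09, 0.773 and 18.96 CPM against 0.246, 0.178 and 0 CPM, a ratio of 38.1 (95% counting interval 12.7 to 188) with an adjusted p of 0.0014, highest in adenoma replicate 3, and its call was lost without that library (2.26, adjusted p = 0.061). Nos2, the inducible nitric oxide synthase, read 24.2, 4.06 and 12.1 CPM against 22.96, 19.97 and 18.02 CPM and was not called (-0.58 ± 0.64, adjusted p = 0.59). Of 13 hypoxia genes 3 rose, and 5 without adenoma replicate 1. Slc2a1, the glucose transporter GLUT1, read 32.9, 82.7 and 95.1 CPM against 12.6, 10.7 and 10.3 CPM (2.60 ± 0.32, adjusted p = 1.2e-06), and Hk2, a hexokinase, read 72.2, 92.8 and 117 CPM against 30.7, 28 and 15.2 CPM (1.90 ± 0.42, adjusted p = 0.0018). Both were higher in every adenoma, while Ldha, lactate dehydrogenase A, was not called (0.29 ± 0.19, adjusted p = 0.33) except without adenoma replicate 1 (0.53, adjusted p = 0.046).

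**Figure D3:**
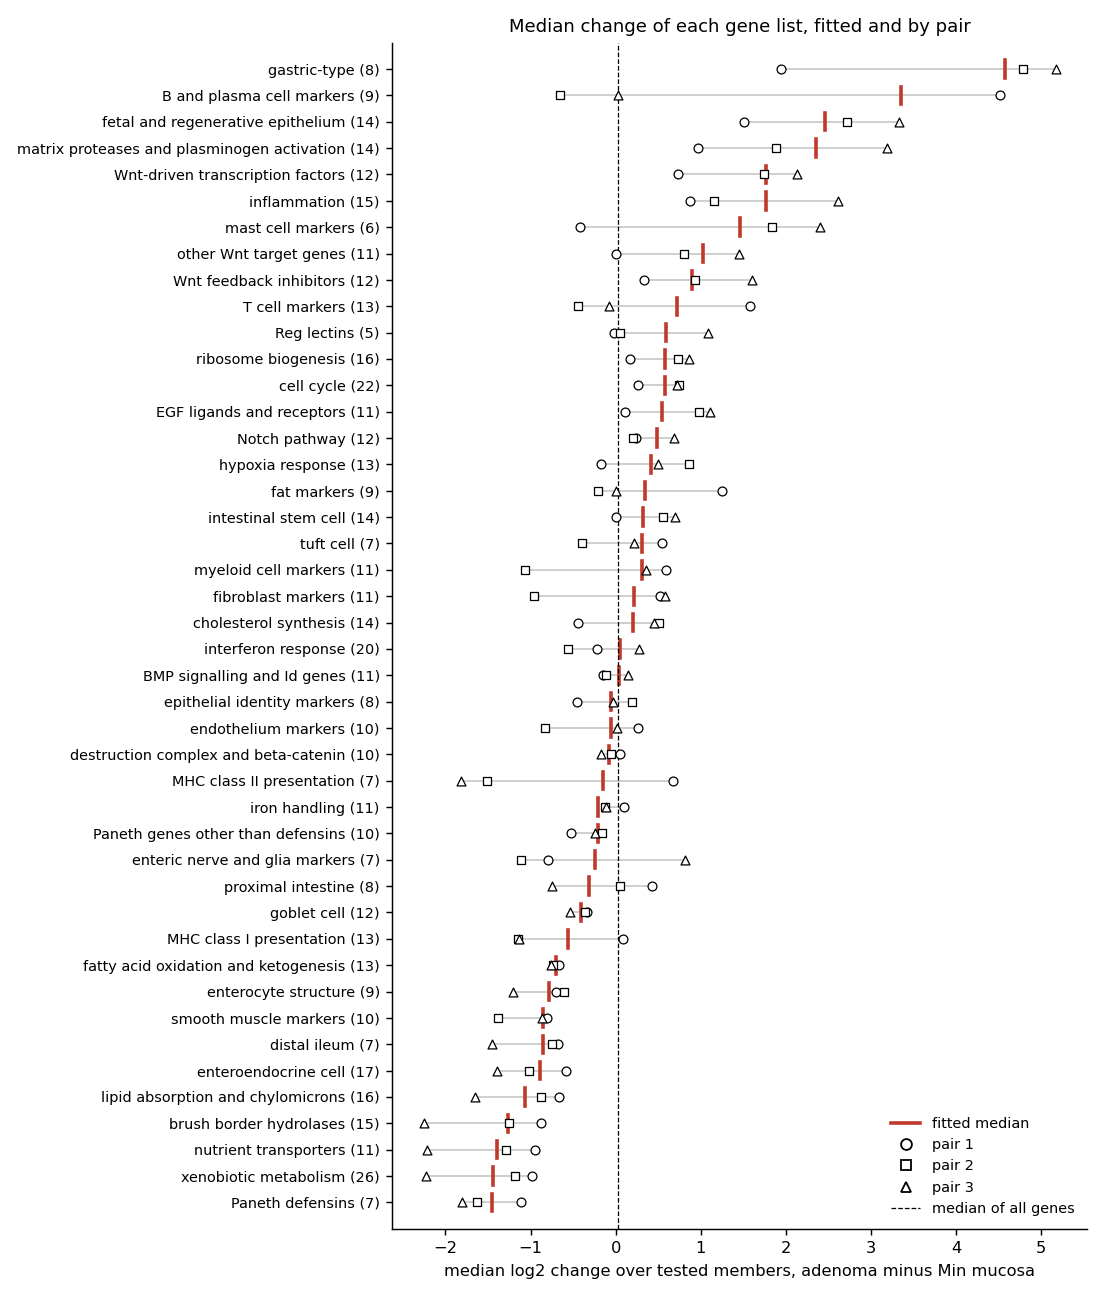
Median log2 change, adenoma minus Min mucosa, over the tested members (number in brackets) of each list with at least 5; the red bar is the fitted median, open shapes the medians of the 3 pairs, the dashed line the median of all genes. Fetal (2.46) and matrix (2.35) lists lie right of the line in all 3 pairs, as does the gastric-type list (4.57), whose members passed the filter through their level in adenomas, nutrient transporters (-1.39) left of it, and the B and plasma cell list is far right in pair 1 alone.

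Falls were frequent among genes of digestion and absorption. Of 11 nutrient transporters 9 fell (median -1.39). Slc5a1, the glucose transporter SGLT1, read 312, 505 and 189 CPM in adenoma and 669, 1307 and 958 CPM in Min mucosa (-1.54 ± 0.44, adjusted p = 0.014), and its call was lost on leaving out adenoma replicate 3 (-1.28, adjusted p = 0.093) or Min mucosa replicate 2 (-1.28, adjusted p = 0.074). Slc2a5, the fructose transporter, read 10.8, 20.5 and 7.38 CPM against 21.1, 80.96 and 69.98 CPM (-2.11 ± 0.70, adjusted p = 0.035), a call lost without pair 1 (-2.39, adjusted p = 0.053) and on leaving out adenoma replicate 1 (-1.98, adjusted p = 0.087) or 3 (-1.88, adjusted p = 0.14) or Min mucosa replicate 2 (-1.76, adjusted p = 0.12) or 3 (-1.94, adjusted p = 0.097). Slc3a1, a subunit of the transporter for cystine and basic amino acids, read 64.1, 64.9 and 30.3 CPM against 90.3, 112 and 71.6 CPM and was not called (-0.77 ± 0.29, adjusted p = 0.064) except with the block in the 6 (-0.80, adjusted p = 0.039) and the 24 libraries (-0.82, adjusted p = 0.00069) and without adenoma replicate 1 (-0.93, adjusted p = 0.049). Adenoma replicate 3 was the lowest library in all 3 genes, which did not overlap. Leaving out adenoma replicate 3 gave 4 falls, and leaving out Min mucosa replicate 2 gave 5.

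Of 15 brush border hydrolases 8 fell and 0 rose (median -1.26). Sis, sucrase-isomaltase, read 761, 1116 and 337 CPM in adenoma and 1596, 2658 and 2389 CPM in Min mucosa (-1.58 ± 0.47, adjusted p = 0.019), a call lost on leaving out adenoma replicate 3 (-1.26, adjusted p = 0.12) or Min mucosa replicate 2 (-1.43, adjusted p = 0.066) or 3 (-1.53, adjusted p = 0.055). Anpep, aminopeptidase N, read 2576, 1182 and 679 CPM against 2687, 3480 and 3204 CPM and was not called (-1.08 ± 0.42, adjusted p = 0.075), but was without adenoma replicate 1 (-1.75, adjusted p = 0.0068), without pair 1 (-1.84, adjusted p = 0.0097) and with the block in the 24 libraries (-1.29, adjusted p = 0.013). That block called 15 of the list lower. Leaving out adenoma replicate 3 gave 4 falls, and leaving out Min mucosa replicate 2 or 3 gave 5.

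Of 9 structural genes of enterocytes 5 fell (median -0.78). Vil1, villin of the microvillus core, read 845, 1180 and 765 CPM in adenoma and 1463, 1717 and 1762 CPM in Min mucosa (-0.82 ± 0.24, adjusted p = 0.016), without overlap, a call lost with the block in the 6 libraries (-0.82, adjusted p = 0.090), without pair 1 (-0.84, adjusted p = 0.057) and on leaving out adenoma replicate 1 (-0.76, adjusted p = 0.051) or 3 (-0.73, adjusted p = 0.090) or Min mucosa replicate 2 (-0.79, adjusted p = 0.0504) or 3 (-0.77, adjusted p = 0.059). The keratin gene Krt20 read 783, 1603 and 1351 CPM against 1269, 1657 and 1662 CPM and was not called (-0.30 ± 0.26, adjusted p = 0.49). The count was 2 with the block in the 6 libraries and without adenoma replicate 3, and 3 without adenoma replicate 1 or Min mucosa replicate 2 or 3.

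Of 16 lipid absorption genes 7 fell and 1 rose (median -1.07). Fabp2, an intestinal fatty acid carrier, read 1922, 2479 and 1539 CPM in adenoma and 3464, 7358 and 9219 CPM in Min mucosa (-1.75 ± 0.56, adjusted p = 0.030), lower in every adenoma, a call lost on leaving out adenoma replicate 1 (-1.73, adjusted p = 0.066) or 3 (-1.63, adjusted p = 0.12) or Min mucosa replicate 2 (-1.68, adjusted p = 0.072) or 3 (-1.45, adjusted p = 0.13). Scarb1, a lipoprotein receptor, was the gene that rose, at 7.71, 8.70 and 21.9 CPM against 3.07, 3.39 and 2.34 CPM (1.97 ± 0.36, adjusted p = 0.00028). The falls numbered 12 with the block in the 24 libraries, 3 without adenoma replicate 3 or Min mucosa replicate 3 and 4 without adenoma replicate 1.

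Of 26 xenobiotic metabolism genes 10 fell and 1 rose (median -1.44). Aldh1b1, a mitochondrial aldehyde dehydrogenase, read 334, 382 and 261 CPM in adenoma and 680.3, 869 and 858 CPM in Min mucosa (-1.30 ± 0.24, adjusted p = 0.00030). Akr1b7, an aldo-keto reductase, read 13.5, 13.9 and 5.53 CPM against 49.98, 52.1 and 42.1 CPM (-2.07 ± 0.48, adjusted p = 0.0028), while its relative Akr1b8 read 12, 24.2 and 38.7 CPM against 3.68, 3.39 and 6.09 CPM (2.44 ± 0.42, adjusted p = 0.00014). The groups did not overlap in any of the 3. With the block the falls numbered 17 in the 6 and 22 in the 24 libraries.

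Of 13 genes of fatty acid oxidation and ketogenesis 6 fell (median -0.70), 10 with the block in the 24 libraries and 3 without adenoma replicate 3. Ehhadh, a peroxisomal enzyme, read 66.3, 69 and 51.9 CPM in adenoma and 152, 153 and 187 CPM in Min mucosa (-1.39 ± 0.23, adjusted p = 0.00011). It was lower in every adenoma. None of 14 cholesterol synthesis genes was called (median 0.21), and 3 were higher with the block in the 24 libraries.

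The largest fitted fall was that of Slc5a4a, a member of the SGLT family, at 2.74, 3.67 and 0.790 CPM in adenoma and 8.23, 26.4 and 23.6 CPM in Min mucosa (-2.79 ± 0.80, adjusted p = 0.014), a call lost on leaving out adenoma replicate 3 (-2.5027, adjusted p = 0.072) or Min mucosa replicate 2 (-2.49, adjusted p = 0.056). Aqp3, a water and glycerol channel, read 2.40, 1.93 and 1.32 CPM against 3.19, 16.6 and 23.2 CPM (-2.68 ± 0.79, adjusted p = 0.018), a call lost on leaving out adenoma replicate 2 (-2.68, adjusted p = 0.0505) or 3 (-2.56, adjusted p = 0.072) or Min mucosa replicate 2 (-2.54, adjusted p = 0.052) or 3 (-2.16, adjusted p = 0.098). Tymp, thymidine phosphorylase, read 3.43, 4.64 and 3.16 CPM against 8.35, 21.6 and 26.9 CPM (-2.22 ± 0.51, adjusted p = 0.0026). In all 3 Min mucosa replicate 1 was the lowest Min mucosa library, above the adenomas as the choice of these genes required.

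Paneth cells secrete antimicrobial peptides. Of 7 defensins tested 5 fell (median -1.45), and 3 without adenoma replicate 3 or Min mucosa replicate 2 or 3; these genes are near-identical copies, so reads may be assigned to the wrong member. They summed to 323, 374 and 258 CPM in adenoma and 697, 1043 and 1045 CPM in Min mucosa. Of 10 other Paneth genes 5 fell and 2 rose. Lyz1, lysozyme, read 2263, 2502 and 2601 CPM against 5170, 6129 and 7764 CPM (-1.37 ± 0.36, adjusted p = 0.0079), lower in every adenoma. Sox9, a factor of Paneth and progenitor cells, read 21.8, 33.2 and 34.5 CPM against 13.5, 12.5 and 9.13 CPM (1.31 ± 0.31, adjusted p = 0.0035). Pla2g2a, a phospholipase that varies between strains and modifies Min tumour number, read 836, 1924 and 2781 CPM against 815, 1318 and 1252 CPM and was not called (0.71 ± 0.33, adjusted p = 0.14), but was without adenoma replicate 1 (1.06, adjusted p = 0.018). The falls of the second list numbered 1 without Min mucosa replicate 3 and 3 with adenoma replicate 1 or 3 or Min mucosa replicate 2 left out or with the block in the 6 libraries, and its rises 4 without adenoma replicate 1 and 1 without adenoma replicate 3 or with that block.

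Of 5 Reg lectins 1 fell, Reg3a, at 30.5, 14.7 and 16.1 CPM against 76.7, 54.6 and 70.9 CPM (-1.70 ± 0.46, adjusted p = 0.011), lower in every adenoma, a call lost without adenoma replicate 3 (-1.59, adjusted p = 0.052). Reg3b, an antimicrobial lectin hard to tell from Reg3g by short reads, read 4480, 3345 and 7819 CPM in adenoma and 2329, 2925 and 1637 CPM in Min mucosa; the groups did not overlap, but it was not called (1.18 ± 0.75, adjusted p = 0.30) except with the block in the 24 libraries (1.12, adjusted p = 0.022). Of 17 enteroendocrine genes 7 fell and 0 rose (median -0.89). Gcg, the precursor of glucagon-like peptides, read 18.9, 13.5 and 9.75 CPM against 41.5, 34.95 and 34.9 CPM (-1.37 ± 0.27, adjusted p = 0.00066), without overlap, and Chga, chromogranin A, read 12.7, 12.2 and 6.85 CPM against 17.1, 26.6 and 22 CPM and was not called (-1.01 ± 0.37, adjusted p = 0.057) except with the block in the 24 libraries (-0.9998, adjusted p = 0.0024) and by DESeq2 (-1.02, adjusted p = 0.046). The falls numbered 1 without adenoma replicate 3, 2 when Min mucosa replicate 2 was left out and 3 without adenoma replicate 2 or Min mucosa replicate 1 or 3.

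Of 12 goblet cell genes 1 fell, a count near the share of all genes called lower (6.98%) and no result about the list. It was the trefoil peptide gene Tff3 (-0.78 ± 0.27, adjusted p = 0.046), at 455, 595 and 573 CPM against 819, 918 and 1046 CPM. Its call was lost without each of the 6 libraries in turn, with adjusted p from 0.053 to 0.15, and with the block in the 6 libraries (-0.76, adjusted p = 0.071). The block in the 24 libraries called 4 goblet cell genes lower and 1 higher, and 3 were higher without adenoma replicate 1. Of 7 tuft cell genes 1 rose, Avil, the actin-binding advillin, at 8.23, 13.7 and 20.8 CPM against 1.72, 1.07 and 1.64 CPM (3.003 ± 0.49, adjusted p = 7.9e-05), while Dclk1, the usual marker of these cells, was not called (0.72 ± 0.42, adjusted p = 0.25).

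Of 8 proximal intestine genes 2 rose, and none of 7 distal ileum genes was called. Lct, the lactase of the proximal intestine, read 18.3, 162 and 42.1 CPM in adenoma and 7.49, 618 and 770.0 CPM in Min mucosa and was not called (-2.64 ± 1.76, adjusted p = 0.33) except with the block in the 24 libraries (-1.85, adjusted p = 0.047). Fabp6, the bile acid carrier of the ileum, read 2084, 2145 and 1260 CPM against 4931, 4387 and 5165 CPM, lower in every adenoma, and was not called (-1.40 ± 1.23, adjusted p = 0.48), but was with the block in the 6 (-1.41, adjusted p = 0.040) and the 24 libraries (-1.43, adjusted p = 0.00042). In wild-type mucosa Gata4 read 35.6, 0.964 and 0.879 CPM. Onecut2, a factor of the proximal list, read 14.4, 53.9 and 50.8 CPM against 0.737, 0.713 and 0.702 CPM (5.27 ± 0.74, adjusted p = 7.7e-06), higher also in replicate 1, where Gata4 was near 0. With the block, 3 and 5 of 7 distal ileum genes were called lower in the 6 and the 24 libraries.

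The calls of B cell genes rested on 1 adenoma. Of 9 B and plasma cell markers 7 were called higher (median 3.35), but 0 without adenoma replicate 1, where the median was -0.56, and 3 with the block in the 6 libraries. Cr2, a complement receptor of B cells, read 66.3, 0.387 and 0 CPM in adenoma and 0.246, 0 and 0 CPM in Min mucosa, high in adenoma replicate 1 alone (adjusted p = 0.0020), and it was not called without that library (0.35, adjusted p = 0.84) or without pair 1 (0.77, adjusted p = 0.60). Igj, the joining chain of secreted antibodies, read 324, 85.2 and 164 CPM against 517, 218 and 221 CPM (-0.74 ± 0.47, adjusted p = 0.30), and was called with the block in the 24 libraries (-0.81, adjusted p = 0.0095). Of 13 T cell markers 3 were called higher, 0 without adenoma replicate 1, Min mucosa replicate 1 or 3 or with the block in the 6 libraries, 1 without Min mucosa replicate 2 and 6 without adenoma replicate 2.

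Cd74, the invariant chain of MHC class II, read 1126, 78.7 and 159 CPM in adenoma and 598, 213 and 536 CPM in Min mucosa (0.02 ± 0.61, adjusted p = 0.99), and without adenoma replicate 1 it fell (-1.92, adjusted p = 0.019). Of 7 class II genes 0 were called with all libraries, 6 were lower without adenoma replicate 1 and 2 without pair 1. Of 13 MHC class I genes, some of them near-identical copies, 4 fell (median -0.55), and 2 did without adenoma replicate 3 or Min mucosa replicate 2 or 3. H2-T23, a nonclassical class I gene, read 52.5, 43.7 and 43.2 CPM against 73.8, 97.2 and 99.9 CPM (-0.95 ± 0.22, adjusted p = 0.0033), lower in every adenoma. Of 20 interferon response genes 1 fell, a count near the share of all genes called lower (6.98%) and no result about the list. It was the transcription factor gene Irf7, at 29.3, 29.6 and 33.2 CPM against 47.9, 53.7 and 77.2 CPM (-0.95 ± 0.26, adjusted p = 0.012). The Irf7 call was lost without Min mucosa replicate 3 (-0.72, adjusted p = 0.098). The block in the 24 libraries called 3 lower.

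Mcpt1, a protease of mucosal mast cells, read 3.60, 48.7 and 47.1 CPM in adenoma and 0.123, 0.535 and 1.17 CPM in Min mucosa (5.32 ± 1.36, adjusted p = 0.0071), lowest among adenomas in replicate 1. Of 6 mast cell genes 2 rose, Mcpt1 among them, and 1 did without Min mucosa replicate 1 or 3. Of 10 endothelial genes 2 rose, Flt1, a VEGF receptor, at 8.40, 11.8 and 17.9 CPM against 4.91, 3.39 and 1.87 CPM (1.74 ± 0.41, adjusted p = 0.0033), and 1 did without adenoma replicate 1 or Min mucosa replicate 3 and with the block in the 6 libraries. None of the 11 fibroblast, 11 myeloid or 10 smooth muscle markers was called. The block in the 6 or the 24 libraries called 1 fibroblast marker lower, and 1 was higher without adenoma replicate 2. Of myeloid markers 2 were lower without adenoma replicate 1 and 1 without pair 1, among them the lysozyme gene Lyz2 (-1.33, adjusted p = 0.030 and -1.51, adjusted p = 0.025). Smooth muscle markers summed to 940.4, 131 and 498 CPM in adenoma and 1632, 262 and 985 CPM in Min mucosa, and 7 and 8 were called lower with the block in the 6 and the 24 libraries, and 4 without adenoma replicate 1.

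Of 11 iron handling genes 3 rose and 2 fell. With adenoma replicate 3 left out, 1 rose and 1 fell, and 1 rose without Min mucosa replicate 2. The falls numbered 0 with the block in the 6 libraries and 1 without adenoma replicate 2, Min mucosa replicate 1 or 3 or pair 1. Hmox1, heme oxygenase, read 4.97, 3.48 and 5.79 CPM in adenoma and 0.737, 0.713 and 0 CPM in Min mucosa (2.58 ± 0.46, adjusted p = 0.00018), and Heph, the ferroxidase of iron export, read 196, 234 and 163 CPM against 356, 326 and 366 CPM (-0.82 ± 0.18, adjusted p = 0.0022), a call lost with the block in the 6 libraries (-0.81, adjusted p = 0.053). Neither overlapped between groups. Among 7 enteric nerve and glia genes Ret, a receptor tyrosine kinase, rose at 20.7, 43.3 and 43.99 CPM against 10.2, 9.81 and 8.89 CPM (1.86 ± 0.29, adjusted p = 4.3e-05). Of 8 epithelial identity genes Vil1 fell, as above, and Krt18 rose, at 199, 586 and 750.2 CPM against 201, 189 and 196 CPM (1.39 ± 0.29, adjusted p = 0.0010), with adenoma replicate 1 inside the mucosa range and the call lost with the block in the 6 libraries (1.22, adjusted p = 0.083). Slc26a3, a chloride exchanger of the colon list, fell at 55.03, 60.5 and 28.7 CPM against 113, 138 and 120.1 CPM (-1.35 ± 0.26, adjusted p = 0.00050). None of 9 fat and 2 erythroid markers tested was called, and the block in the 24 libraries called 1 fat marker lower.

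With the 6 libraries fitted alone and no block, 660 genes were called. The rises then numbered 3 of the stem cell genes, 2 of the cell cycle genes, 1 of ribosome biogenesis, 1 of the EGF list, 0 of the Notch list and 3 of inflammation. The falls numbered 4 of the nutrient transporters, 2 of the brush border hydrolases, 0 of enterocyte structure, 3 of lipid absorption, 3 of fatty acid oxidation and 1 of the enteroendocrine genes. The T and B cell lists had 0 calls. In that fit the calls of Rnf43, Sp5, Olfm4, Erbb3, Dll1, Cxcl5, Slc5a1, Slc2a5, Sis, Vil1, Fabp2, Aqp3, Tff3, Heph, Krt18, Cr2 and Ms4a1 were lost as well, with adjusted p from 0.051 to 0.16.

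**Figure D4:**
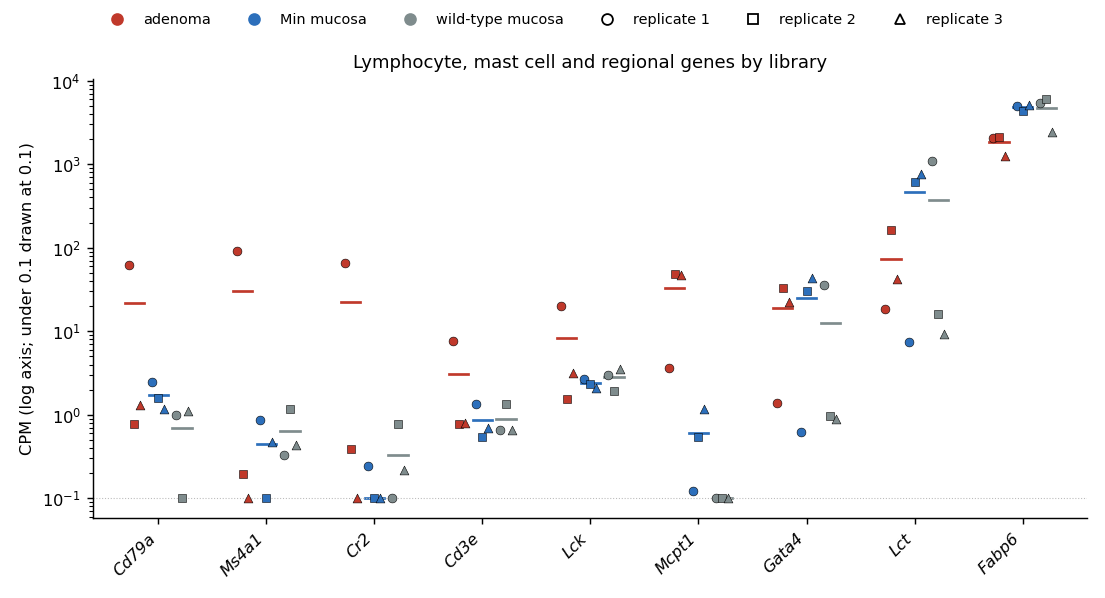
CPM on a log axis of lymphocyte genes, the mast cell protease Mcpt1 and the regional genes Gata4, Lct and Fabp6 in each library; shapes mark replicates, short lines group means, and values under 0.1 CPM are drawn at 0.1. Adenoma replicate 1 alone is high in Ms4a1 (90.3 CPM), and adenoma and Min mucosa of replicate 1 are both low in Gata4 (1.37 and 0.614 CPM).

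Against wild-type mucosa of the same cross 2539 genes were called (18.6%), 1443 higher (10.6%) and 1096 lower (8.03%). Of these, 1718 had the same call as against Min mucosa, and both comparisons share the adenoma libraries. Proximal intestine genes summed to 1174, 74.6 and 51.0 CPM in wild-type mucosa and 83.0, 284 and 154 CPM in adenoma. The part of intestinal region in these calls was not tested. Prox1 rose (3.003, adjusted p = 2.4e-07) and Gcg fell (-1.41, adjusted p = 0.00046). Lyz1, at 6713, 4557 and 2998 CPM in wild-type mucosa, was not called (-0.95, adjusted p = 0.057), and Pla2g2a, at 1181, 760.2 and 843 CPM, was called higher (0.99, adjusted p = 0.033).

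The adenoma effect of B6xPWD differed from the mean effect of B6, C5F1 and C5 at 113 genes (0.827%). The B6xPWD effect was the higher in 107 (0.783%) and the lower in 6 (0.0439%). In 96 of the 107 adenoma replicate 1 was the highest adenoma library, and in 78 it was over 5 times the next. The count was 4 without that library and 3 without pair 1, and 388 and 269 without adenoma replicate 2 or 3. Further, it was 3, 5 and 4 without Min mucosa replicate 1, 2 or 3, 5 without B6 adenoma replicate 1, 23 to 144 without 1 of the other libraries of B6, C5F1 and C5, and 258 with the block in the 24 libraries. No Wnt target gene of the 35 tested was called.

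Lect2 and St6galnac4 were called in each of these fits. Lect2, a secreted protein made mainly in liver (chr13:56529734-56548559), read 8.23, 9.86 and 11.6 CPM in adenoma and 13.1, 6.60 and 9.13 CPM in Min mucosa of B6xPWD (0.02 ± 0.36, adjusted p = 0.98), overlapping. Its log2 change was 4.55, 3.28 and 2.02 in B6, C5F1 and C5, a difference of -3.27 ± 0.38 (adjusted p = 1.5e-05), and without pair 1 the difference remained past the threshold (-2.85, adjusted p = 0.00081). St6galnac4, a sialyltransferase (chr2:32587078-32599696), read 8.40, 7.34 and 11.3 CPM against 2.58, 1.43 and 3.04 CPM (1.81 ± 0.25, adjusted p = 6.0e-06), without overlap, and had log2 changes of 0.12, 0.20 and -0.32 in B6, C5F1 and C5, a difference of 1.81 ± 0.29 (adjusted p = 0.0026).

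Lgr5 was among the 6. Its log2 change was 1.92, 1.32 and 0.63 in B6, C5F1 and C5, a difference of -1.27 ± 0.29 (adjusted p = 0.034), which was not called without adenoma replicate 1 (-1.0010, adjusted p = 0.34), pair 1 (-0.74, adjusted p = 0.77) or Min mucosa replicate 1 (-1.01, adjusted p = 0.15), 2 (-1.39, adjusted p = 0.11) or 3 (-1.38, adjusted p = 0.12). It was also lost on leaving out B6 adenoma replicate 1, B6 Min mucosa replicate 3, C5F1 Min mucosa replicate 2 or C5 adenoma replicate 1, with adjusted p from 0.052 to 0.058, and with the compared groups fitted alone (-1.28, adjusted p = 0.079). Prex1, an activator of the GTPase Rac, read 40.6, 19.7 and 22.9 CPM against 6.75, 10.7 and 7.02 CPM (1.74 ± 0.25, adjusted p = 1.4e-05), higher in every adenoma. Its difference of 1.57 ± 0.29 (adjusted p = 0.015) was not called without adenoma replicate 1 (1.18, adjusted p = 0.12), pair 1 (1.05, adjusted p = 0.40) or Min mucosa replicate 1 (1.44, adjusted p = 0.086) or 3 (1.49, adjusted p = 0.11).

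**Figure D5:**
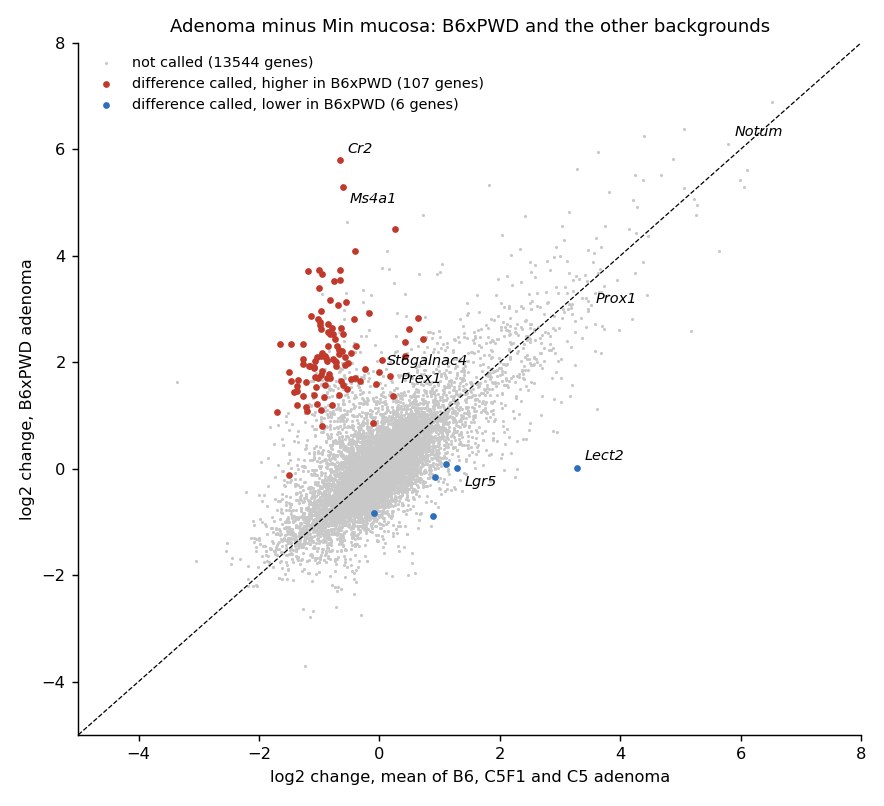
Log2 change from Min mucosa to adenoma in B6xPWD (vertical axis) against the mean change in B6, C5F1 and C5 (horizontal axis), 1 point per gene tested; coloured points are the 113 genes whose change differed and the dashed line marks equal change. Notum and Prox1 lie near the line, Lect2 to the right of it (0.02 against 3.29), and most called genes, Cr2 and Ms4a1 among them, above it.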

How the data were processed

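Adenoma and mucosa RNA was sequenced after ribosomal depletion, and the authors deposited raw read counts per gene, made with BWA and HTSeq on mm10 per the submitters' processing notes. Versions, annotation and the strand setting are not given in the sources used here, so overlapping and antisense genes cannot be told apart. HTSeq's 5 summary rows, 43.6 to 52.7% of the 6 libraries' reads, were left out. Columns were matched to samples by name, and no library was a copy of another.

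From the 24062 genes, those passing edgeR's filter (13657) were fitted in 39 tissue libraries of 13 groups with edgeR 4.0.16 in R 4.3.3 (quasi-likelihood test, TMM, prior count 2). Adjusted p-values come from that test with Benjamini-Hochberg adjustment over all genes tested, except where DESeq2, a block, or a fit on other libraries is named beside the value, and a gene is called, or rose or fell, where it is under 0.05. Changes are log2 differences, adenoma minus mucosa, ± SE, with n = 3 libraries a group. The 8 organoid libraries were not used. The filter asks for a minimum count of 10 in enough libraries of whatever group. Genes near 0 in Min mucosa thus passed it through other libraries, and their rises are descriptions. The procedure was also run on simulated counts with known changes. These were drawn without pairs, regional differences or an outlying library, so the run does not speak of those. Alternatives were RLE scaling, DESeq2 1.42.0, no filter, Rn45s left out, the compared groups alone, the replicate number as a block (6 or 24 libraries), each library left out in turn and, chosen after seeing the data, replicate pair 1 left out and a robust fit. Numbers were taken to pair adenoma and Min mucosa because same-numbered libraries deviated together (every r over 0.1). Adenoma replicate 2 also passed 0.1 with Min mucosa replicate 3 (r = 0.147, against 0.244 with its own number), so this limit does not single out same-numbered libraries. Adenoma and wild-type numbers do not pair, although r was -0.052, 0.059 and 0.137 for numbers 1, 2 and 3.

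The members and lists were chosen with earlier results of these data known. Named genes are the 10 largest rises and falls without overlap, up to 4 per list (largest called rise and fall, most abundant called and not called member), a set of standard markers and the 8 interaction genes with the smallest adjusted p. Nkd1, Wif1, Tcf7, Lef1, Sp5, Mmp7 and Gkn3 fall outside that rule and were chosen after their values were seen. A few genes that the rule names are not reported here. Of the table's symbols, 22550 matched RefSeq symbols and 1351 synonyms.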

Additional observations from a re-analysis of the deposited data

Results flagged for a closer look

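The adenoma effect of B6xPWD minus the mean effect of B6, C5F1 and C5 passed edgeR's quasi-likelihood test for each gene given here as a log2 difference. It was lower in B6xPWD for Lect2 (-3.27) and Lgr5 (-1.27). It was higher for St6galnac4 (1.81), Prex1 (1.57), Hmha1 (2.64), S1pr4 (3.60), the cytokine receptor gene Il21r (4.73), the B cell gene Fcrla (4.90) and the chemokine gene Cxcl9 (2.77). Among lymphocyte markers the difference was 6.44 for Cr2, 5.90 for Ms4a1, 4.40 for Cd79a, 4.00 for Cd22, 2.53 for Lck and 2.92 for Cd3e. Of the 113 genes called, 4 were also called without adenoma replicate 1, Lect2, St6galnac4, Adssl1 and Mdk, and 2 of the 113, Lect2 and St6galnac4, without pair 1. Adssl1 and Mdk are named because the count is small and were chosen after their values were seen.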

How the results depend on the processing

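Against Min mucosa, RLE scaling, DESeq2, no filter and leaving out Rn45s gave 2034 to 2370 calls. Fitting the compared groups alone gave 660, the replicate block 1328 in the 6 libraries and 3256 in the 24, and leaving out 1 library 1335 to 2470. Against wild-type mucosa the compared groups alone gave 505 calls, and leaving out 1 library 1766 to 2439. The replicate block there gave 538, and its numbers do not pair those samples. For the difference between backgrounds, DESeq2 gave 211 calls, the compared groups alone 8, the replicate block 258, the robust fit 75, leaving out pair 1 3, and leaving out 1 library 3 to 388. The main fit takes its estimate of the spread from 39 libraries, and the fits on the compared groups take it from fewer. The cause of these differences in calls was not tested. Leaving out 1 library gave log2 changes from -1.92 to 0.52 for Cd74, -0.91 to 5.90 for Ms4a1, -0.069 to 2.19 for Lck and -0.55 to 4.26 for Fcrla, the lowest each time without adenoma replicate 1. Without pair 1 Ms4a1 was at -0.31 and Fcrla at -0.80. Among lists with most members called, medians that changed sign on leaving out 1 library ranged from -0.44 to 0.034 for Paneth genes other than defensins, -0.56 to 3.92 for B and plasma cell markers and -0.037 to 0.68 for pancreas markers. The B and plasma cell median was -0.30 without pair 1. Medians of other lists changed sign too, among them T cell markers (-0.44 without adenoma replicate 1) and BMP genes (-0.19 and -0.21 without adenoma replicate 1 or 3). At 4544785 to 6578504 counts a library, much of it Rn45s, genes of low counts did not enter the test, so that changes in them were not detectable at this depth.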
